A study of Mus musculus with 17 samples.

Results

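Hematopoietic stem cells (HSCs) of E15.5 fetal liver were compared with adult HSCs titled C/EBPa KO, to list which fetal features the adult cells without C/EBPa did not show. The members were chosen by the sample titles: the 3 fetal liver arrays were set against the 3 KO arrays from day 7 and the 4 KO arrays from day 21 after pIpC, with each day given the same weight. These are 10 of the 17 arrays of the series, and the comparison was made over all 18194 annotated genes, of which 16785 were above the lowest deposited value on at least 1 array and were tested. The other 7 arrays are adult controls, 3 from day 7 and 4 from day 21. They serve to place the KO level, and they also enter each gene's estimate of spread, the filter and the choice of probe set.

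C/EBPa is a transcription factor of the basic leucine zipper family that is needed for the step from progenitors to granulocyte and monocyte precursors, and in adult HSCs it is known to restrain proliferation. HSCs of the fetal liver divide actively and expand, whereas most adult bone marrow HSCs rest outside the cell cycle. The RNA-binding protein Lin28b and its target Hmga2, together with imprinted growth genes such as Igf2, are known for marking the fetal program.

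All cells were mouse cells sorted by flow cytometry without lineage markers or CD48 and with Sca-1, c-Kit and CD150, and the fetal gate added low Mac-1. Every adult group, the controls included, came from animals injected with pIpC, a double-stranded RNA analog that triggers an interferon response and often serves to induce a Cre transgene. No pIpC is named for the fetal liver arrays, and they carry no genotype label. The labels conflict on the adult genotype: the titles name C/EBPa KO, while the genotype field of the same arrays and the design text name a homozygous PU.1 knock-in (PU.1ki/ki), with the controls given as wild type. Developmental stage, tissue, gate, pIpC and genotype all differ between the groups at once and cannot be told apart here. The labels name no Cre driver and do not state if a replicate was 1 animal or a pool. The p-values thus reflect only how much these samples varied.

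RNA was amplified with a whole-transcriptome kit and measured on Affymetrix arrays. The deposited values are intensities on a linear scale with a floor of 16, which held 20.4% to 25.2% of the probe sets of each array, and the arrays had median intensities of 39.4 to 53.1. Precision is limited by how many arrays there are, since intensities carry no count depth. Differences are given on the log2 scale as fetal minus KO, with the standard error (SE) of limma's linear model, and genes were called where the p adjusted by Benjamini and Hochberg's method lay under 0.05.

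The arrays also differed in ways that the groups do not name. Xist, the RNA that silences one X chromosome in females, had intensities of 6530.0, 6902 and 6254 on fetal liver replicates 1, 2 and 3 and of 5896 to 7511 on the KO day 21 arrays. On the same arrays the Y-linked gene Eif2s3y was at the floor. KO day 7 replicates 2 and 3 had Xist at 47.2 and 46.7 with Eif2s3y at 309.6 and 328, and replicate 1 showed both, at 4893 and 129.6. On these genes the fetal arrays were like KO day 21 and unlike KO day 7. The fetal replicates themselves differed in genes of other cell types, with replicate 1 highest in neutrophil granule genes and lowest in endothelial and hepatocyte genes. Those values are given beside the results they touch.

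Cebpa, which encodes C/EBPa, was low on the fetal arrays as well as on the KO arrays. Its intensities were 40.4, 30.2 and 81 on fetal liver replicates 1, 2 and 3, and the 7 KO arrays ran from 20.7 to 39.8 with a median of 29.9. The 7 control arrays ran from 115 to 532, above every KO array. Fetal and KO arrays overlapped and differed by 0.69 (SE 0.47, adjusted p = 0.559), with a 95% interval from -0.31 to 1.70. KO minus control was -2.78 (SE 0.36, adjusted p = 0.0426), a call kept in 9 of the 14 fits that each leave out 1 adult array. The position of the probe set relative to the excised sequence was not checked here.

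Spi1, which encodes PU.1, the factor named by the conflicting genotype field, was 237, 248 and 399.9 on the fetal arrays. It ran from 231 to 459.9 on the KO arrays and from 126 to 623 on the controls. The groups overlapped, and fetal minus KO was -0.25 (SE 0.40, adjusted p = 0.866). Mycn, a MYC family factor, was 1651, 815 and 712 on the fetal arrays and 499 to 1242 on the KO arrays, which overlap. Its difference was 0.59 (SE 0.37, adjusted p = 0.53), and its 3 probe sets did not share a sign.

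Over all genes, 426 of 16785 differed between fetal liver and the mean of the KO groups, or 2.54%. Of these, 201 were higher in fetal liver (1.2% of genes tested) and 225 were lower (1.34%). These shares are the background for each count below of list genes called higher or lower in fetal liver. With each array centred on its median, the split was 247 higher and 180 lower, and the median difference over all genes moved from 0.01 to 0.13. The median size of a called difference was 1.93 on the log2 scale; 205 called genes differed by 4-fold or more, 37 by 16-fold or more, and 64 by under 2-fold. In 385 of the 426 the fetal arrays did not overlap with the 7 KO arrays. Over all genes, the 3 fetal arrays lay above all 7 KO arrays in 621 genes (3.7%) and below all of them in 592 (3.53%). Leaving out 1 array at a time gave 287 (without KO day 7 replicate 1) to 485 calls (without fetal liver replicate 1).

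Against each KO day on its own, fetal liver differed in 214 genes at day 7 (1.27%) and in 319 at day 21 (1.9%), and 425 of the 426 called genes had the same sign against both days. The day 7 count was 351 without fetal liver replicate 1 and 117, 129 and 124 without KO day 7 replicates 1, 2 and 3, while the day 21 count stayed within 1.5 times of its value in those fits. The KO groups together differed from the controls in 12 genes (0.0715%), 10 higher and 2 lower, and 6 of the 426 were among those 12. That count rests on single arrays: it was 0 without control day 7 replicate 2, KO day 7 replicate 3 or control day 21 replicate 1, 11 at most without any other single array, and 1 with median centring. Fetal minus KO and KO minus control share the KO arrays, so their values are given side by side below. The overlap of 6 genes is not read as agreement between them.

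**Figure D1:**
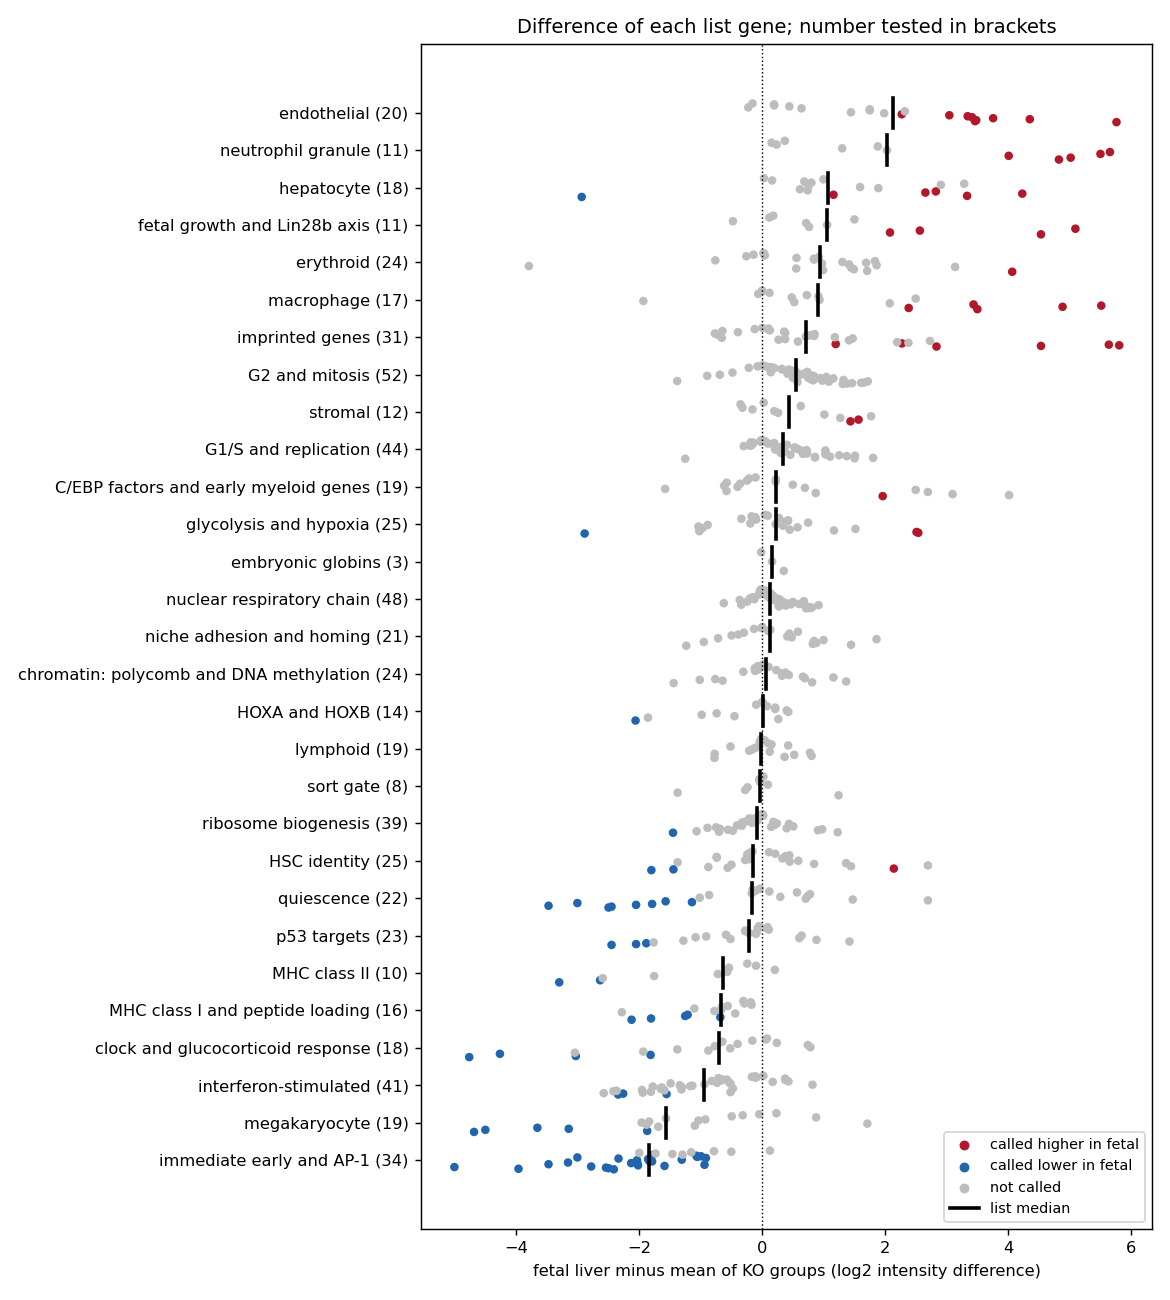
Fetal liver minus the mean of the KO groups on the log2 scale (x axis) for the genes of 29 lists, the sex-linked one left out (y axis, number tested in brackets); each point is a gene, red where called higher and blue where called lower, and the black bar is the list median. The immediate early list lies furthest to the left, with 26 of 34 genes called lower, and the endothelial list furthest to the right, with 9 of 20 called higher.

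Igf2, Igf2bp1, Igf2bp3 and Hmga2, of the fetal growth program, were called higher in fetal liver. They are 4 of 11 tested genes of the Lin28b axis, with none called lower and 7 not called, against 1.2% of all genes called higher, with a list median of 1.06. The KO minus control median of the same list was 0.00, and none of the 11 was called there (limma). Lin28b itself lay at the floor on all 17 arrays.

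Hmga2, a chromatin protein repressed by let-7 microRNAs and known to promote self-renewal in young stem cells, had intensities of 2855, 3318 and 4693 on fetal liver replicates 1, 2 and 3. The KO arrays had a lowest value of 42.7, a median of 90.9 and a highest of 563, on KO day 21 replicate 2. All fetal arrays lay above all KO arrays, with a log2 difference of 5.09 (SE 1.15, adjusted p = 0.0336). One control array reached 810.1. Without any 1 of the arrays other than KO day 21 replicate 2 the call was lost, with adjusted p from 0.0579 to 0.112; without that array it was 0.0181.

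Igf2, an imprinted insulin-like growth factor of the fetus, was 523, 1478 and 1847 on the fetal arrays. On the KO arrays it ran from 32.7 to 90.6 with a median of 43.3, so the groups were far apart. The difference was 4.53 (SE 0.37, adjusted p = 1.24e-05), a 23.1-fold excess in fetal liver, against a KO minus control difference of 0.49 (adjusted p = 0.539). Igf2bp1 and Igf2bp3, RNA-binding proteins that bind Igf2 and other growth mRNAs, rose by 2.08 (SE 0.30, adjusted p = 0.0015) and 2.56 (SE 0.41, adjusted p = 0.00348). Igf2bp3 was 344, 334 and 425 on the fetal arrays and at most 104 on the KO arrays. Both groups of arrays stayed apart for all 4 called genes of the list, as they did for 385 of the 426 called genes.

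Among 31 imprinted genes, whose expression comes from one parental copy and which are known as regulators of fetal growth, 6 were called higher and none lower. These were Igf2, Mest, Plagl1, Peg3, Grb10 and Dcn, against 1.2% of all genes called higher. The 2 probe sets of Dcn differed in sign, and 0 passed when all probe sets were tested. The list median was 0.71, against 0.01 over all genes. The KO minus control median was -0.11. Mest, a hydrolase expressed from the paternal copy, was 1297, 6632 and 8733 on the fetal arrays and 23.9 to 201 on the KO arrays, without overlap. Its difference was 5.80 (SE 0.85, adjusted p = 0.00181). Plagl1, a zinc finger factor known to act on other imprinted genes, was 811, 1899 and 1178 on the fetal arrays, while 4 of the 7 KO arrays were at the floor and the highest, KO day 21 replicate 2, was 77.5. It rose by 5.63 (SE 0.94, adjusted p = 0.0045). Peg3, a paternally expressed zinc finger factor, was dim, with 99.5, 100.4 and 196 on the fetal arrays and 16 to 19.4 on the KO arrays. Its groups did not overlap and its difference was 2.83 (SE 0.22, adjusted p = 9.23e-06). Grb10, an adaptor that restrains insulin receptor signalling, was 619, 906 and 1289 on the fetal arrays and 283 to 604 on the KO arrays. Its call (difference 1.19, SE 0.27, adjusted p = 0.0358) was kept only without fetal liver replicate 1, KO day 7 replicate 1 or KO day 21 replicate 1. In the other fits without 1 array its adjusted p reached 0.158. For Grb10, KO minus control was -0.90 (adjusted p = 0.154) and fetal minus control only 0.29, so most of its gap lay between KO and control.

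Of 3 embryonic globins none was called by limma, and none had an unadjusted p under 0.05. Hbb-bh1, a globin of primitive erythrocytes, was 60.5, 59.7 and 59.7 on the fetal arrays and 37.6 to 64.5 on the KO arrays, which overlap (difference 0.35, SE 0.16, adjusted p = 0.352).

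**Figure D2:**
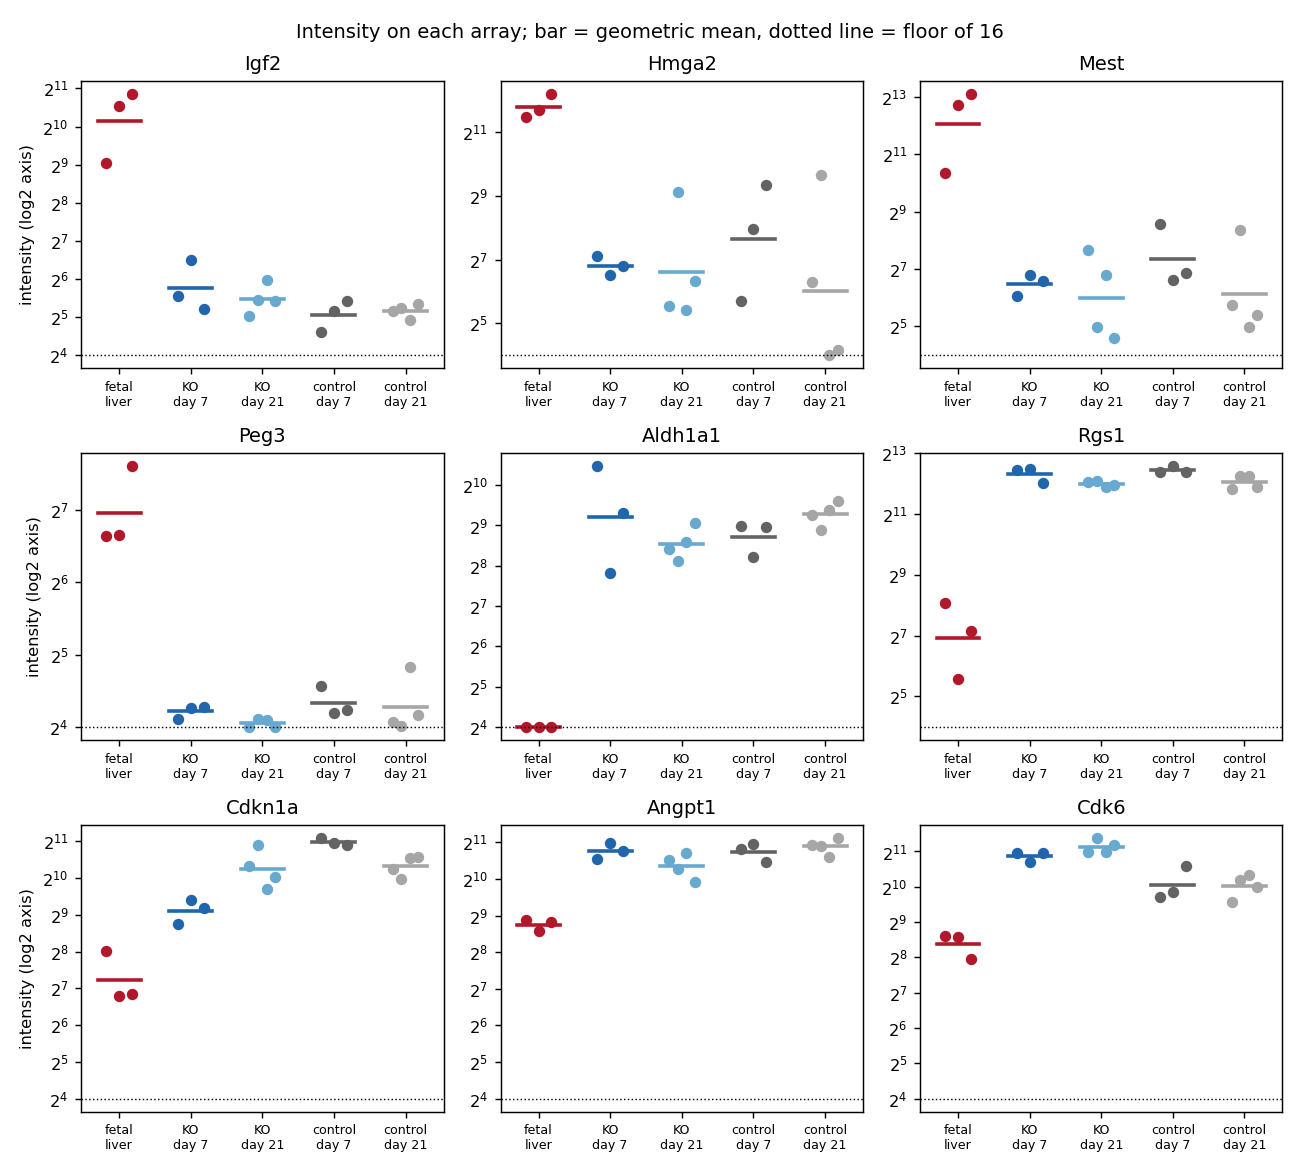
Intensity of 9 genes (log2 axis) on each array by group; points are arrays, bars are geometric means, and the dotted line is the floor of 16. Igf2, Hmga2, Mest and Peg3 are high on the fetal arrays and low in all 4 adult groups, Aldh1a1, Rgs1, Cdkn1a and Angpt1 are low on the fetal arrays, and Cdk6 is lowest in fetal liver, intermediate in the controls and highest in the KO groups.

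Of 25 genes that define HSC identity, 1 was called higher, 2 lower and 22 not, with a median of -0.16, against 1.2% of all genes called higher and 1.34% called lower. Angpt1, a ligand of the Tie2 receptor made by HSCs, was 472, 379.6 and 450.2 on the fetal arrays, below the KO range of 961 to 2013. It fell by 1.80 (SE 0.18, adjusted p = 7.18e-05). Gata2, a zinc finger factor needed for HSC survival, was 1001, 722 and 1126 on the fetal arrays and 2087 to 3336 on the KO arrays, also without overlap (difference -1.44, SE 0.19, adjusted p = 0.00067). Neither differed between KO and control beyond the threshold, at -0.25 (adjusted p = 0.51) and -0.15 (adjusted p = 0.731). Fgd5, used as an HSC reporter gene, was 891, 579 and 902 on the fetal arrays and 55.1 to 400.1 on the KO arrays. Its rise of 2.14 (SE 0.51, adjusted p = 0.042) was kept only without KO day 21 replicate 2 or 3. In the other fits without 1 array its adjusted p reached 0.138. For Fgd5, KO minus control was -1.24 (adjusted p = 0.256) and fetal minus control 0.90.

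Other genes that were high in KO cells and low in fetal cells lay outside that list. Aldh1a1, which makes retinoic acid, was at the floor on all 3 fetal arrays and at 227 to 1428 on the KO arrays, with a median of 383. It was at least 29.4-fold lower in fetal liver (adjusted p = 1.63e-05), and KO minus control was -0.12 (adjusted p = 0.921). Muc13, a transmembrane mucin, was 195, 108 and 55 on the fetal arrays and 1370.2 to 2533 on the KO arrays. Its difference was -4.25 (SE 0.34, adjusted p = 1.01e-05). Of 14 HOXA and HOXB genes, 1 was called: Hoxa10, a homeobox factor of early progenitors, was 106, 16 and 96.4 on the fetal arrays and 166 to 371 on the KO arrays, with replicate 2 at the floor. Its difference was -2.06 (SE 0.49, adjusted p = 0.0422), kept only without fetal liver replicate 1 or 3 among the fits without 1 array (adjusted p up to 0.11).

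The list with the largest share of called genes was that of immediate early genes, the fast targets of signalling that include the AP-1 factors of the FOS and JUN families, the EGR and NR4A factors and feedback inhibitors of NF-kB. Of 34 tested, 26 were called lower in fetal liver and none higher, against 1.34% of all genes called lower. Their median difference was -1.85. In 25 of the 34 the fetal arrays lay below all KO arrays, against 3.53% of all genes. The mean log2 intensity of the list was 8.36 to 8.97 on the fetal arrays, 10.41 to 10.86 on the KO arrays and 10.33 to 11.17 on the controls. The KO arrays lay inside the control range, with a median KO minus control difference of -0.08, 14 of 34 genes positive and none called there by limma.

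Egr1, a zinc finger factor known to hold HSCs in quiescence, was 2723, 846 and 1027 on the fetal arrays. The KO arrays ran from 6404 to 8786, all above the fetal arrays, and the difference was -2.50 (SE 0.26, adjusted p = 0.000114). Jun and Fosb, subunits of AP-1, fell by 1.59 (SE 0.19, adjusted p = 0.00038) and 2.78 (SE 0.34, adjusted p = 0.00038). Fos, another AP-1 subunit, was 1856, 1691 and 1791 on the fetal arrays and 2414 to 6094 on the KO arrays. Its fall of 1.31 (adjusted p = 0.011) missed the threshold without fetal liver replicate 2 (adjusted p = 0.0516). Nr4a1, an orphan nuclear receptor, was 1177, 131 and 226 on the fetal arrays and at least 2722 on each KO array. It fell by 3.47 (SE 0.48, adjusted p = 0.00109).

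Socs3, the feedback inhibitor of JAK-STAT signalling, showed the largest difference of the list. It was 23.1, 16 and 200.1 on fetal liver replicates 1, 2 and 3 and 902 to 2631 on the KO arrays with a median of 1228. The groups did not overlap, and the difference was -5.00 (SE 0.60, adjusted p = 0.000366). Maff, a small MAF factor, was 365, 191 and 272 on the fetal arrays, 841 to 2512 on the KO arrays and 1867 to 2943 on the controls. It fell by 2.41 against KO (SE 0.22, adjusted p = 2.76e-05).

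**Figure D3:**
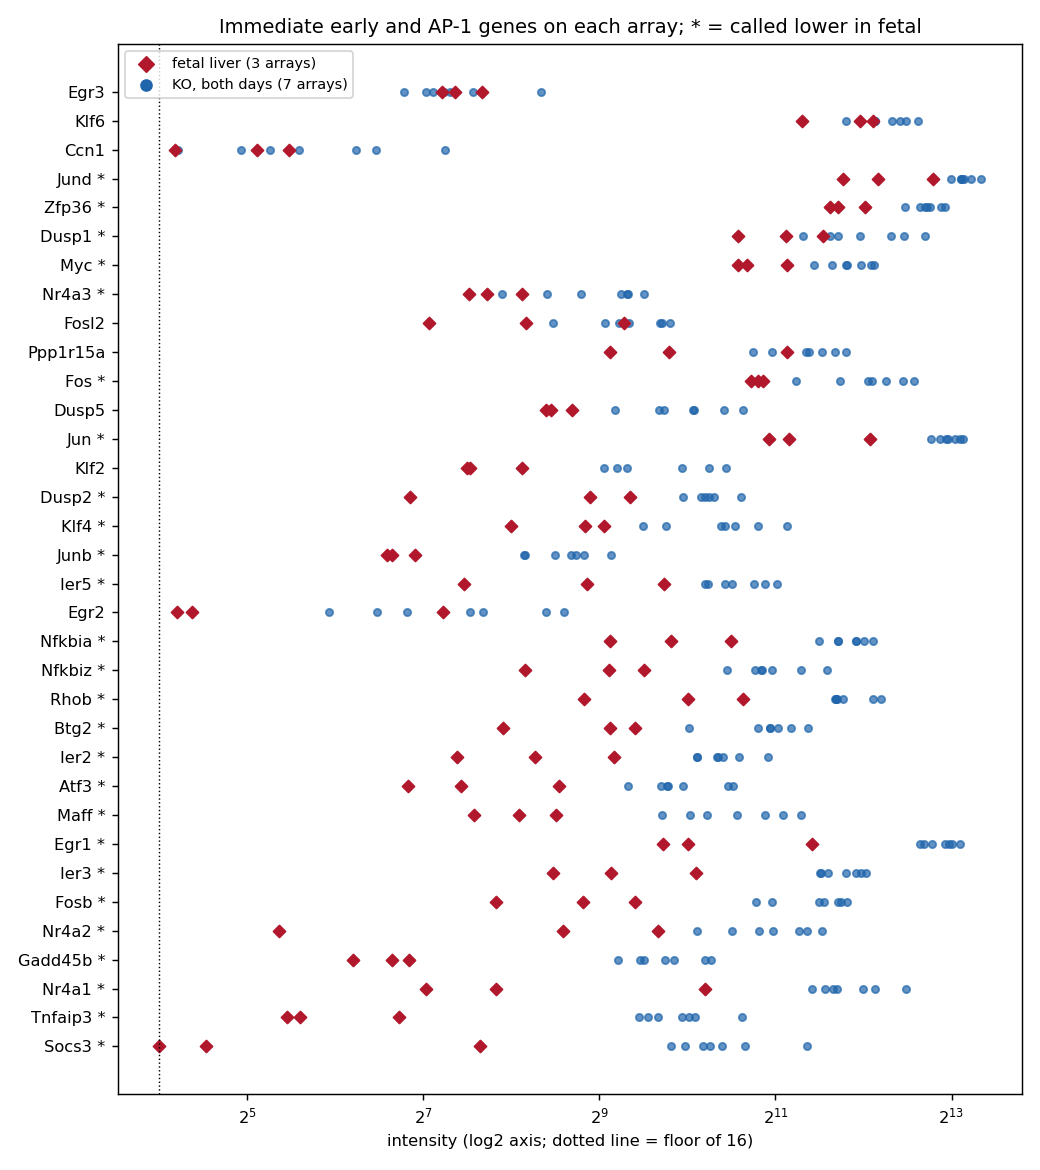
Intensity (log2 axis) of the 34 immediate early genes on the 3 fetal liver arrays (red diamonds) and the 7 KO arrays of both days (blue circles), ordered by difference; an asterisk marks the 26 genes called lower in fetal liver. For 25 genes the red points all lie below the blue points, against 3.53% of all genes.

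The feedback inhibitors of NF-kB, the dimeric factor that switches on inflammatory genes, were among the lowest in fetal liver. Tnfaip3, the ubiquitin-editing enzyme A20, was 105, 43.7 and 48.5 on the fetal arrays and 701 to 1578 on the KO arrays. Its difference was -3.96 (SE 0.38, adjusted p = 4.83e-05) with both probe sets called. Nfkbia, the inhibitor that holds NF-kB in the cytoplasm, was 1441, 557 and 898 on the fetal arrays and 2875 to 4421 on the KO arrays, and fell by 2.02 (SE 0.26, adjusted p = 0.000634). Ier3, an early gene linked to cell survival, was 1096, 356 and 561 on the fetal arrays against 2917 to 4193. It fell by 2.54 (SE 0.29, adjusted p = 0.000257). Of further NF-kB genes, chosen after their values were seen, Nfkbid fell by 3.70 (SE 0.44, adjusted p = 0.000322) and the subunit Rel by 1.69 (SE 0.31, adjusted p = 0.00924).

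Promoters of these genes are shown because, of the 4 motifs searched, the binding sequence of NF-kB had the largest ratio of its share among genes called lower to its share among all genes. They are the 250 bases before the start in RefSeq (GRCm38.p6), written from 5′ to 3′ of the gene's own strand, with each match to the NF-kB consensus in capitals. Tnfaip3 lies at chr10:19015411-19015660 on the minus strand, Nfkbia at chr12:55492648-55492897 on the minus strand and Ier3 at chr17:35821463-35821712 on the plus strand. H2-D1, a classical MHC class I gene described further down, lies at chr17:35262844-35263093, and B2m, its light chain, at chr2:122147437-122147686, both on the plus strand.
Tnfaip3: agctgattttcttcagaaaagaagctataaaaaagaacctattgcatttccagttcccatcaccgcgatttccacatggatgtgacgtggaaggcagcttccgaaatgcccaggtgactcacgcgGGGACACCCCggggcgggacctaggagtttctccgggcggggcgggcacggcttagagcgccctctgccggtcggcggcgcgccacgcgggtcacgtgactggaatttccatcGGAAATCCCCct
Nfkbia: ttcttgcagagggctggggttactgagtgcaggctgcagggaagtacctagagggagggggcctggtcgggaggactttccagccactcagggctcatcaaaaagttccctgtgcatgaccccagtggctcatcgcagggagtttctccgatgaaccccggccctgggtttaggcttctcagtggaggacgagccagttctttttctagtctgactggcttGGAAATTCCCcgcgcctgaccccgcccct
Ier3: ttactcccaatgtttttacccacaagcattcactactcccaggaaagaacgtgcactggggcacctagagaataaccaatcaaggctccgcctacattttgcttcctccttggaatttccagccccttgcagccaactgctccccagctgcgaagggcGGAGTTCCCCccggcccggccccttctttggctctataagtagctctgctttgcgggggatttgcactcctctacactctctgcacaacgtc
H2-D1: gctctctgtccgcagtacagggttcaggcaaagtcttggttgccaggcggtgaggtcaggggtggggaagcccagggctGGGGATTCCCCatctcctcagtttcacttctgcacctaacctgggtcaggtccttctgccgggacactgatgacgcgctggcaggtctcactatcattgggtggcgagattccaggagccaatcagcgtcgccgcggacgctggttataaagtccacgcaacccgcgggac
B2m: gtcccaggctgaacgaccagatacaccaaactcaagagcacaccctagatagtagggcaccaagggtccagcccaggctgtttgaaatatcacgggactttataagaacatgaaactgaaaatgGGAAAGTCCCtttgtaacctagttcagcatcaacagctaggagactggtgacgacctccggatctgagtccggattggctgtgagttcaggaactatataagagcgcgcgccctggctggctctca

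Tnfaip3 held 2 matches, the nearer one starting 12 bases before the start, Nfkbia held 1 that started 29 bases before it, and Ier3 1 that started 92 bases before it. In H2-D1 a pair of overlapping matches began 171 and 170 bases before the start, and in B2m 1 match began 126 bases before it. A window of 300 bases, 250 before to 50 after the start, was given for 13362 of the 16785 genes tested, and both strands were searched in all windows of a gene. The NF-kB consensus was in 6.21% of those genes, in 27 of 180 genes called lower (15%) and in 8 of 146 called higher (5.48%). Among the called immediate early genes it was in 7 of 22: Maff, Tnfaip3, Ier3, Fosb, Nfkbia, Nr4a1 and Fos. Among all tested immediate early genes, called or not, it was in 8 of 29 (27.6%).

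The other motifs were less uneven or rarer. The cyclic AMP response element TGACGTCA was in 3.04% of all genes and 5.56% of those called lower, the interferon-stimulated response element in 3.55% and 6.11%, and the CArG box of serum response factor in 1.62% and 1.67%. Overlaps between motifs were not removed. A match says that these letters are present and not that a factor binds there, and the motifs were chosen after the genes were known.

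Genes linked to quiescence were called lower in fetal liver in 8 of 22 cases, against 1.34% of all genes, and higher in none. The 8 were Egr1, Cdkn1a, Nr4a1, Nr4a2, Btg2, Klf4, Cdkn1b and Hes1, and 5 of them also stand in the immediate early list; 5 were called without KO day 7 replicate 1. Hes1, a Notch target, overlapped between the groups and was called in 2 of 10 fits without 1 array, with adjusted p up to 0.191, and not with median centring (adjusted p = 0.0872). The list median was -0.16, and 8 of the 22 genes were positive. Cdkn1a, the p21 inhibitor of cyclin-dependent kinases, was 259, 111 and 115 on the fetal arrays and 433 to 1911 on the KO arrays, with the controls at 1007 to 2186. It fell by 2.45 against KO (SE 0.29, adjusted p = 0.00031), and KO minus control was -0.98 (adjusted p = 0.136). Btg2, an antiproliferative target of p53, was 678, 240.2 and 555 on the fetal arrays and 1034 to 2639 on the KO arrays and fell by 2.05 (SE 0.33, adjusted p = 0.00353). Klf4, a zinc finger factor that slows division in several tissues, fell by 1.79 (SE 0.30, adjusted p = 0.00511). Cdkn1b, the p27 inhibitor, was 386, 376 and 526 on the fetal arrays; its difference of -1.14 (adjusted p = 0.0358) was kept in 1 of 10 fits without 1 array, that without KO day 21 replicate 4, and its second probe set differed by 0.03. Of 23 p53 targets, 3 were called lower, Cdkn1a, Btg2 and the kinase Plk3, and none higher.

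Rgs1, a regulator that shortens chemokine receptor signalling, showed the second largest fall of all called genes, at 268, 47.3 and 143 on the fetal arrays and 3805 to 5659 on the KO arrays. The difference was -5.21 (SE 0.36, adjusted p = 4.03e-06), a 37.1-fold deficit, while KO minus control was -0.10 (adjusted p = 0.93). Skil, an inhibitor of TGF-beta signalling and itself one of its early targets, was 141, 40.9 and 120.1 on the fetal arrays against 945 to 2871, and fell by 4.24 (SE 0.38, adjusted p = 2.4e-05). Smad7, the feedback inhibitor of the same pathway, fell by 2.02 (SE 0.31, adjusted p = 0.00228). Ptgs2, the inducible prostaglandin synthase, was at or near the floor on the fetal arrays (32.9, 22.5 and 16) and 80.2 to 463 on the KO arrays. Its difference was -3.44 (SE 0.42, adjusted p = 0.00038). Skil, Smad7 and Ptgs2 were chosen after their values were seen.

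Among the 10 largest falls was Hspa1b, an inducible HSP70, at 16, 81.8 and 37.8 on the fetal arrays and 191 to 3626 on the KO arrays, with a median of 1630.5. The difference was -4.83 (SE 0.94, adjusted p = 0.0135), and the call was lost without fetal liver replicate 1 (adjusted p = 0.0616) or 3 (adjusted p = 0.052); its near-identical copy Hspa1a cannot be separated from it with certainty. Herpud1, which acts in degradation at the endoplasmic reticulum, was 209.8, 226 and 295 on the fetal arrays and 712 to 1161 on the KO arrays. It fell by 1.93 (SE 0.20, adjusted p = 8.97e-05). Hspa5, the main chaperone there, fell by 1.12 (SE 0.18, adjusted p = 0.00283), and Atf4, a factor of the stress response, by 1.33 (SE 0.14, adjusted p = 9.42e-05), although another of its 3 probe sets differed by 0.31 and their mean did not pass (adjusted p = 0.0546). Herpud1, Hspa5 and Atf4 were chosen after their values were seen, and no list of such genes was counted.

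Of 18 genes of the circadian clock and the glucocorticoid response, 4 were called lower, against 1.34% of all genes, and none higher. They were Bhlhe40, Klf9, Zbtb16 and Per1. Bhlhe40, a helix-loop-helix repressor of the clock, was 33.2, 54 and 29 on the fetal arrays and 535 to 1769.9 on the KO arrays, without overlap. It fell by 4.76 (SE 0.28, adjusted p = 7.7e-07). Klf9, a target of the glucocorticoid receptor, was 16, 527 and 253 on the fetal arrays, with replicate 1 at the floor, and 1244 to 4680.1 on the KO arrays. Its difference was -4.26 (SE 0.77, adjusted p = 0.00832), lost with only the arrays compared in the fit (adjusted p = 0.0721), and KO minus control was -1.05 (adjusted p = 0.526). Zbtb16, the factor PLZF, was at or near the floor on the fetal arrays (16, 23.5 and 16) and 90.5 to 266 on the KO arrays. It differed by -3.03 (SE 0.50, adjusted p = 0.00451). The list median was -0.71. The call of Per1, a core clock gene with a fall of 1.81, was lost without fetal liver replicate 2 (adjusted p = 0.0518).

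Of 41 interferon-stimulated genes, 35 had a negative difference, and 3 were called lower, against 1.34% of all genes. Those called were Irf1, Lgals3bp and Usp18. The list median was -0.94, and 17 of the 41 had an unadjusted p under 0.05. The KO minus control median was 0.32, with 30 of 41 genes positive and none called, and the fetal minus control median was -0.48. Mean log2 intensity of the list was 6.61 to 7.25 on the fetal arrays and 7.20 to 7.93 on the controls, which overlap. Without fetal liver replicate 1, 1 gene was called. Only the adult animals are labelled as treated with pIpC, so the treatment cannot be told apart from stage, and KO day 21 replicate 4 had the highest mean log2 intensity of the list at 8.78, against 7.50 to 8.33 on the other KO arrays. Irf1, an interferon-induced transcription factor, was 128, 290.0 and 261 on the fetal arrays and 649.7 to 1554 on the KO arrays. It fell by 2.34 (SE 0.27, adjusted p = 0.000282). Usp18, which removes the ubiquitin-like ISG15, was at the floor on all fetal arrays and at 30.7 to 166 on the KO arrays, at least 4.79-fold lower (adjusted p = 0.0244), a call lost in 5 of 10 fits without 1 array. Those 5 left out a fetal array or KO day 7 replicate 1 or 3, with adjusted p up to 0.0859. For Usp18, KO minus control was 1.61 (adjusted p = 0.148) and fetal minus control was -0.65. Lgals3bp, a secreted glycoprotein, was 649, 840.0 and 690.2 on the fetal arrays and 1359.5 to 2993 on the KO arrays; its fall of 1.56 (SE 0.31, adjusted p = 0.0145) was lost without fetal liver replicate 1 or 3, with adjusted p of 0.0525 and 0.0607.

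All 16 tested genes of MHC class I presentation, which displays peptides of the cell's own proteins, had a negative difference, with a median of -0.67. Of the 16, 5 were called lower, against 1.34% of all genes: H2-D1, H2-K1, B2m, Psmb8 and Tapbp. The count was 3 without fetal liver replicate 2 and without KO day 7 replicate 2 or 3 or KO day 21 replicate 1, 3 or 4; Psmb8 was called in 2 and Tapbp in 1 of 10 fits without 1 array. H2-D1 was 1219, 1044 and 1001 on the fetal arrays and 3193 to 6597 on the KO arrays, and fell by 2.12 (SE 0.18, adjusted p = 2.08e-05). H2-K1, another classical class I gene, was 1754, 995 and 2764 against 5208 to 7060.4, and fell by 1.81 (SE 0.23, adjusted p = 0.000459). B2m, the light chain of all class I molecules, was 5180.3, 5918 and 6849 against 8808 to 10742, a smaller fall of 0.68 (SE 0.11, adjusted p = 0.00264). H2-D1, H2-K1 and B2m hold an NF-kB consensus in their promoter windows, and the matched letters of H2-D1 and H2-K1 are identical. Among all tested class I genes with a window, called or not, it was in 4 of 13 (30.8%), against 6.21% of all genes.

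H2-Q5, a class I gene outside that list, showed the largest fall of all called genes. It was 32.8, 70.0 and 33.2 on the fetal arrays and 1692 to 3426 on the KO arrays, a difference of -5.96 (SE 0.26, adjusted p = 2.83e-08). Its second probe set was dim and differed by 0.21, and 7 of the 9 probe sets of H2-D1 shared its sign. Class I genes are near-identical in sequence and vary between mouse strains, so their probe sets can read each other. No mouse strain is named in the sources used here.

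In MHC class II, which presents taken-up peptides, 2 of 10 genes were called lower, against 1.34% of all genes, and the list median was -0.65. H2-Aa was 38.3, 38.4 and 16.7 on the fetal arrays and 165 to 511 on the KO arrays, a fall of 3.30 (SE 0.45, adjusted p = 0.000954). Its partner H2-Ab1 was 200.1, 72.2 and 50.8 against 306 to 1224, and the fall of 2.63 (SE 0.48, adjusted p = 0.00902) was lost without fetal liver replicate 2 (adjusted p = 0.051) or 3 (adjusted p = 0.0586). The KO and control medians of both MHC lists differed little, at -0.10 for class I and -0.20 for class II.

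**Figure D4:**
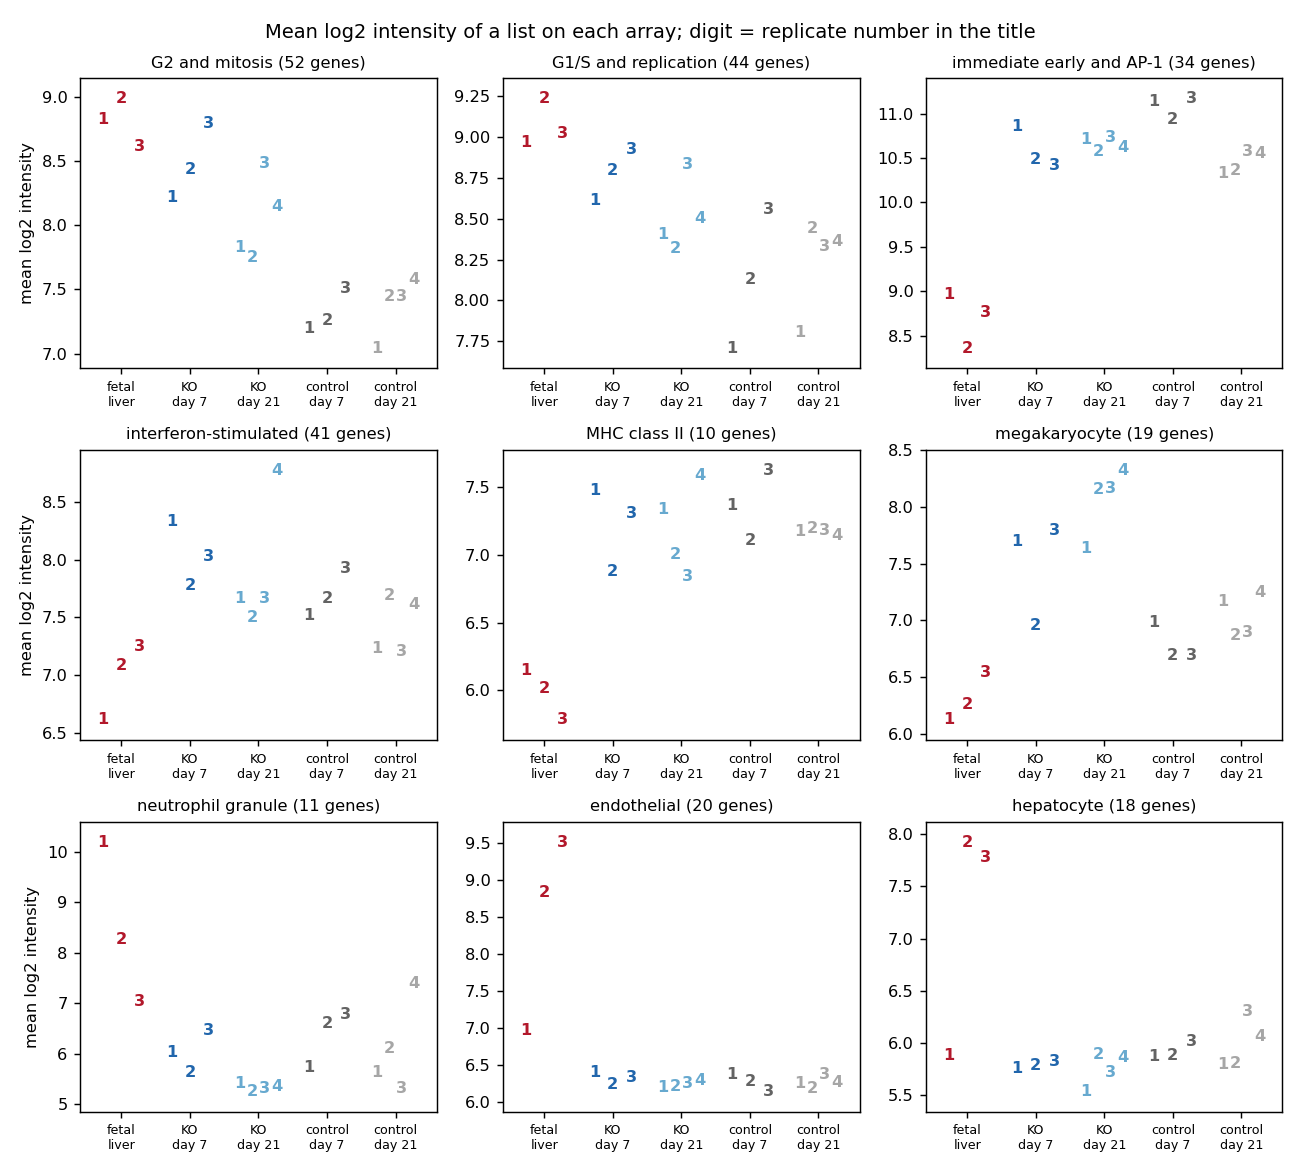
Mean log2 intensity of 9 gene lists (y axis, a range of its own in each panel) on each array by group, with the digit giving the replicate number. Fetal replicate 1 stands apart in the neutrophil granule, endothelial and hepatocyte panels, the fetal arrays are lowest in the immediate early and MHC class II panels, and in the G2 and mitosis panel the KO arrays lie above the controls and overlap with fetal liver.

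No gene of the G2 and mitosis list or of the G1/S and replication list was called for fetal against KO or for KO against control. Of 52 genes of G2 and mitosis, none was called against KO by limma, 7 had an unadjusted p under 0.05 and 46 were positive, with a median of 0.55. The KO minus control median was 0.89 with 50 of 52 positive, and the fetal minus control median was 1.44. Without fetal liver replicate 3, or without KO day 21 replicate 4, 1 gene was called. The mean log2 intensity of the list was 8.61 to 8.99 on the fetal arrays, 7.75 to 8.80 on the KO arrays and 7.04 to 7.58 on the controls, so the KO arrays lay above all controls and overlapped with the fetal arrays. The median against KO day 21 was 0.78 and against KO day 7 0.27; this difference between days was not tested. Of 44 genes of G1/S and replication, none was called by limma, 5 had an unadjusted p under 0.05, and the median was 0.34 against KO, with a KO minus control median of 0.38.

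Single genes of the cycle showed how wide the spread was. Ccna2, the S and M phase cyclin, was 1756, 3186 and 2285 on the fetal arrays, above the KO range of 492 to 1389, and yet did not pass (difference 1.46, SE 0.50, adjusted p = 0.166). Ncaph, a condensin subunit, was 427, 406 and 375 on the fetal arrays and 122 to 245 on the KO arrays, with a difference of 1.31 (SE 0.33, adjusted p = 0.0594). Mki67, the Ki-67 antigen of dividing cells, was 4244, 4681 and 3738 against 2047 to 4133, which overlap (difference 0.57, SE 0.24, adjusted p = 0.289). Chaf1b, a histone chaperone of replication, was 333, 193 and 550.4 on the fetal arrays and 367 to 1186 on the KO arrays, and had a difference of -1.25 (SE 0.37, adjusted p = 0.101).

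Cdk6, the kinase that drives exit from quiescence with D-type cyclins, was called lower in fetal liver. It was 394, 384 and 246 on the fetal arrays, 1655 to 2686 on the KO arrays and 755 to 1536 on the controls, so the fetal arrays were lowest and the KO arrays highest, with no overlap between any of the 3. It fell by 2.62 against KO (SE 0.22, adjusted p = 1.63e-05) in all 3 probe sets, and KO minus control was 0.97 (adjusted p = 0.057). Cdk6 was chosen after its values were seen.

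Few metabolic and chromatin genes were called. None of 48 nuclear genes of the respiratory chain was called by limma and 1 had an unadjusted p under 0.05, with a median of 0.13. The one with the smallest p, the complex I subunit Ndufv2, was 1262, 1066 and 1055 on the fetal arrays and 479.5 to 1098 on the KO arrays (difference 0.72, SE 0.32, adjusted p = 0.329). Of 39 ribosome biogenesis genes, 1 was called: Ddx21, a nucleolar helicase, was 709, 526 and 868 on the fetal arrays and 1467 to 2494 on the KO arrays, a fall of 1.45 (SE 0.25, adjusted p = 0.00511). That list's median of -0.09 turned positive with median centring. None of 24 polycomb and DNA methylation genes was called by limma, with 3 at an unadjusted p under 0.05 and a median of 0.07. Cbx7, a polycomb reader of histone methylation, was 166, 102 and 159 on the fetal arrays and 159 to 1239 on the KO arrays, with a difference of -1.44 (SE 0.55, adjusted p = 0.232).

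Of 25 genes of glycolysis and hypoxia, 2 were called higher and 1 lower, with a median of 0.22. Slc16a3, a lactate exporter, was 1144, 164 and 152 on the fetal arrays, highest on replicate 1, and 30.7 to 109 on the KO arrays, a rise of 2.54 (SE 0.53, adjusted p = 0.0204). That call was lost with each array's percentage of floor values as covariate (adjusted p = 0.0511) and with only the arrays compared in the fit (adjusted p = 0.104). Egln3, an oxygen-sensing hydroxylase, was 586, 411 and 316 against 32.4 to 148 and rose by 2.51 (SE 0.57, adjusted p = 0.0353), but of the 10 fits without 1 array only that without KO day 21 replicate 2 kept the call (largest adjusted p 0.117). Ndrg1, a hypoxia-induced gene of differentiation, was 63.5, 279 and 341 against 624 to 2180.4. It fell by 2.89 (SE 0.49, adjusted p = 0.00563) with all 5 probe sets called. Among 21 genes of niche adhesion and homing none was called by limma, 5 had an unadjusted p under 0.05, and the median was 0.13; without fetal liver replicate 1, or without replicate 3, 1 was called. The laminin receptor Itga6 was 151, 463 and 669 on the fetal arrays, below the KO range of 737 to 965, with a difference of -1.24 (SE 0.36, adjusted p = 0.0941).

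Genes of neutrophil granules had the largest median difference to KO among the blood lineage lists. Of 11 tested, 5 were called higher, against 1.2% of all genes, and none lower. The list median was 2.03, and the KO minus control median was -0.39. The fetal replicates differed widely: the mean log2 intensity of the list was 10.19 on replicate 1, 8.27 on replicate 2 and 7.03 on replicate 3, against 5.25 to 6.46 on the KO arrays. The count of calls was 2 without fetal liver replicate 1 or without replicate 2, and 3 without KO day 7 replicate 2 or KO day 21 replicate 1, 2 or 3. In bulk samples more cells of a type and more RNA per cell cannot be told apart. Itgam, which encodes the Mac-1 antigen of the fetal gate, was 101, 37.1 and 16 on fetal liver replicates 1, 2 and 3 and at the floor on 6 of the 7 KO arrays. Its part in the result was not tested.

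S100a8 and S100a9, the calcium-binding proteins that fill the neutrophil cytoplasm, were 9649, 6041 and 1330.1 and 11449.5, 7104 and 1535 on the fetal arrays. The KO arrays ran from 25.8 to 527 for S100a8 and from 27.8 to 767 for S100a9, below the fetal arrays, while single control arrays reached 1218 and 1890.0. The differences were 5.65 (SE 1.26, adjusted p = 0.0312) and 5.50 (SE 1.22, adjusted p = 0.0307), and each call was kept in 3 of 10 fits without 1 array. Those that kept S100a8 left out fetal liver replicate 3 or KO day 7 replicate 1 or 3, and those that kept S100a9 left out fetal liver replicate 3, KO day 7 replicate 3 or KO day 21 replicate 4; the largest adjusted p was 0.12 and 0.119.

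Camp and Ngp, granule proteins of maturing neutrophils, were 5224, 1439 and 530.3 and 5502, 1976 and 233 on the fetal arrays and at most 81.1 and 96.6 on the KO arrays. They rose by 4.82 (SE 0.76, adjusted p = 0.00291) and 5.01 (SE 0.84, adjusted p = 0.00472). Lcn2, an iron-scavenging granule protein, was 2581, 1203 and 81 against at most 64; its rise of 4.01 (adjusted p = 0.0144) was lost without fetal liver replicate 1 (adjusted p = 0.0608) or 2 (adjusted p = 0.0864). Stfa3, a stefin protease inhibitor of myeloid cells, had the largest rise of all called genes. It was 4683, 780.3 and 422 on the fetal arrays and at the floor on all 14 adult arrays, so that it was at least 72.2-fold higher. It passed the filter only through the fetal arrays and its adult groups have no spread, so its p is not given; stefin genes are near-identical copies whose probe sets can read each other.

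Of 19 C/EBP factors and early myeloid genes, 1 was called, and the median was 0.22. Irf8, the factor of monocyte and dendritic cell fate, was 333, 287 and 393 on the fetal arrays and 40.3 to 302 on the KO arrays, where KO day 21 replicate 1 reached into the fetal range. It rose by 1.96 (SE 0.37, adjusted p = 0.0117), a call lost without fetal liver replicate 3 (adjusted p = 0.0603). The count was 2 without fetal liver replicate 2 or without KO day 21 replicate 2.

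Erythroid genes were positive in 20 of 24 cases, with a median of 0.95. Of these 24 genes, 1 was called higher, against 1.2% of all genes, and none lower, and 2 were called without fetal liver replicate 1. Differences within the list ran from -3.79 to 4.06, so it also held a large fall that was not called. The fetal arrays lay above all KO arrays in 5 genes and below all of them in 1, against 3.7% and 3.53% of all genes. Slc4a1, the anion exchanger of the red cell membrane, was 1283, 2604 and 1126 on the fetal arrays and 19.2 to 276 on the KO arrays. It rose by 4.06 (SE 0.84, adjusted p = 0.0204), a call lost without fetal liver replicate 2 (adjusted p = 0.103) or 3 (adjusted p = 0.0531). Klf1, the master factor of erythroid genes, was 2772, 2362 and 669 on the fetal arrays, 221 to 1658 on the KO arrays and 29 to 751 on the controls, with a difference to KO of 1.69 (SE 0.72, adjusted p = 0.299). The KO minus control median of the list was 0.95, with all 24 genes positive and none called, and the mean log2 intensity of 8.67 to 9.02 on the fetal arrays overlapped with 7.24 to 8.86 on the KO arrays.

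Megakaryocyte genes ran in the opposite direction, with 5 of 19 called lower in fetal liver, against 1.34% of all genes. None was called higher, and the list median was -1.56. The count was 3 without fetal liver replicate 2, KO day 7 replicate 1 or 3, or KO day 21 replicate 2, 3 or 4, and without fetal liver replicate 1 it was 4 with 1 other gene called higher. The mean log2 intensity of the list was 6.12 to 6.54 on the fetal arrays, 6.96 to 8.33 on the KO arrays and 6.69 to 7.24 on the controls. Itgb3 and Itga2b, the subunits of the platelet fibrinogen receptor, were 25.2, 67.6 and 16.2 and 115, 234 and 284 on the fetal arrays. Their KO ranges were 303 to 1845 and 352 to 1509, without overlap with the fetal arrays. They fell by 4.68 (SE 0.58, adjusted p = 0.000453) and 1.87 (SE 0.28, adjusted p = 0.00192).

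Pf4, a platelet chemokine, was 22.4, 41 and 678 on the fetal arrays, 757 to 3332 on the KO arrays and 54.7 to 658 on the controls. The KO arrays were the highest of the 3 groups and overlapped with neither. Fetal liver was lower by 22.6-fold (difference -4.50, SE 0.88, adjusted p = 0.0141), a call lost without fetal liver replicate 1 (adjusted p = 0.0653) or 2 (adjusted p = 0.0859), and KO minus control was 3.60 (adjusted p = 0.0662). The KO minus control median of the list was 0.64. Ache, acetylcholinesterase, which rodent megakaryocytes express, was 62.1, 62.5 and 47.1 on the fetal arrays and 79.3 to 763 on the KO arrays. Its gap was -0.58 against KO day 7 and -3.37 against KO day 21, and KO day 21 minus day 7 was 2.79 (adjusted p = 0.0482). Ache was chosen after its values were seen.

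None of 19 lymphoid genes was called by limma, 3 had an unadjusted p under 0.05, and the median of -0.02 turned positive with median centring. Dntt, the polymerase of lymphoid progenitors, was 56.6, 73.3 and 46.5 on the fetal arrays and 66.2 to 172 on the KO arrays (difference -0.78, SE 0.28, adjusted p = 0.199). None of the 8 tested genes of the sort gate was called by limma, and 1 had an unadjusted p under 0.05; without fetal liver replicate 3, 1 was called. Kit, the receptor used in the gate, was 568, 549 and 602 on the fetal arrays and 442 to 856 on the KO arrays, while Slamf1, the CD150 antigen, was 582, 37.8 and 139.8 on the fetal arrays and 165 to 629.8 on the KO arrays.

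Some marker genes of endothelium, hepatocytes and macrophages were called higher on the fetal arrays, unevenly among the fetal replicates. Of 20 endothelial genes, 9 were called higher and none lower, with a median of 2.12. Of 18 hepatocyte genes, 5 were called higher and 1 lower, with a median of 1.08. Of 17 macrophage genes, 5 were called higher and none lower, with a median of 0.91. Over all genes, 1.2% were called higher and 1.34% lower. The fetal replicates differed among themselves, with a mean log2 intensity of the endothelial list of 6.97, 8.84 and 9.52 on replicates 1, 2 and 3 and of the hepatocyte list of 5.88, 7.93 and 7.78. The KO arrays were at 6.20 to 6.40 and 5.53 to 5.89. The summed intensity ran from 6019 to 21663 on the fetal arrays against 2822 to 3848 on the KO arrays for endothelial genes, and from 1784 to 13105 against 2773 to 5433 for hepatocyte genes. Their part in the other results was not tested.

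Leaving out a fetal array changed these counts. The endothelial count was 12 without replicate 1, 5 without replicate 2 and 4 without replicate 3. The hepatocyte count of genes called higher was 13 without replicate 1, 2 without replicate 2, 1 without replicate 3 and 3 without any 1 of the 7 KO arrays. The mean log2 intensity of the imprinted list was 7.00, 7.61 and 7.88 on replicates 1, 2 and 3, in the same order as the endothelial list, and Igf2 and Mest were lowest on replicate 1. For the fetal growth list it was 7.93, 7.92 and 8.25. Replicate 1 lay above all KO arrays in all 3 lists, and whether these lists are linked was not tested.

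Lyve1, a hyaluronan receptor of sinusoidal and lymphatic endothelium, was 485, 3866 and 3471 on the fetal arrays, lowest on replicate 1, and 24.7 to 45.4 on the KO arrays. It rose by 5.76 (SE 0.48, adjusted p = 1.4e-05). Stab1, a scavenger receptor of sinusoidal endothelium and macrophages, was 129, 224 and 442 against 16.6 to 30.2 and rose by 3.46 (SE 0.31, adjusted p = 2.4e-05). Cdh5, the adhesion molecule VE-cadherin, which is also known from fetal liver HSCs, was 67.9, 877 and 3121 against 23.9 to 34.4 and rose by 4.35 (SE 0.76, adjusted p = 0.0069), a call lost with only the arrays compared in the fit (adjusted p = 0.0671). Oit3, expressed in liver sinusoids, was 352, 3122 and 2557 against 31 to 50.3, with a rise of 5.13 (SE 0.49, adjusted p = 4.43e-05).

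Among hepatocyte genes, Apoa1, the main protein of high-density lipoprotein, was 339, 1294 and 1187 on the fetal arrays and 65.2 to 93.4 on the KO arrays. It rose by 3.33 (SE 0.41, adjusted p = 0.000437) in all 4 probe sets. Ahsg, the serum protein fetuin A, was 85.2, 123 and 165 against 47.9 to 63.6 and rose by 1.16 (SE 0.22, adjusted p = 0.0109), a call lost without fetal liver replicate 3 (adjusted p = 0.0627). Krt18, a keratin of simple epithelia, was 593, 175 and 385 on the fetal arrays and 1923 to 4388 on the KO arrays and fell by 2.93 (SE 0.36, adjusted p = 0.00038).

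Among macrophage genes, Cd5l, a secreted scavenger protein, was even across the fetal arrays at 314, 260.4 and 305, against 21.3 to 36.1 on the KO arrays, and rose by 3.50 (SE 0.16, adjusted p = 2.83e-08). C1qb, a chain of complement C1q, was 1152, 1382 and 936 on the fetal arrays, with 4 of 7 KO arrays at the floor and KO day 21 replicate 3 at 217. It rose by 5.51 (SE 0.64, adjusted p = 0.000282). Marco, a scavenger receptor, rose by 2.38 (SE 0.19, adjusted p = 1e-05). Cd163, another macrophage receptor, was at the floor on all fetal and KO arrays. The mean log2 intensity of the macrophage list was 7.02, 6.34 and 6.77 on the fetal arrays and 5.04 to 5.40 on the KO arrays.

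Of 12 stromal genes, 2 were called higher, Nes and Col1a1, and 5 were called without fetal liver replicate 1; the median was 0.44. Nes, an intermediate filament of perivascular cells, was 76.1, 106 and 133 on the fetal arrays against 30.7 to 42.5 and rose by 1.43 (SE 0.18, adjusted p = 0.000482), but 1 of its 3 probe sets passed and their mean did not (adjusted p = 0.108). Col1a1, a collagen chain, was 58.4, 145 and 246 against 34.7 to 55.6, and its rise of 1.57 (SE 0.31, adjusted p = 0.0162) was lost without fetal liver replicate 2 (adjusted p = 0.0799) or 3 (adjusted p = 0.0655).

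Further single genes were chosen for the gap between their groups, so that gap was fixed by the choice and their p-values add no support. Rasgrp3, an exchange factor that activates Ras, was 233, 369 and 956 on the fetal arrays and at most 19.5 on the KO arrays, a rise of 4.68 (SE 0.29, adjusted p = 1.18e-06). Adgra2, an adhesion receptor of vessels, was 137, 163 and 142 against 19.7 to 24.9, with the smallest spread of these, and rose by 2.76 (SE 0.12, adjusted p = 2.83e-08). Akap12, a scaffold of protein kinase A, was 154, 434 and 551 against 21.3 to 28.8 and rose by 3.72 (SE 0.29, adjusted p = 1.01e-05). Igf1, a growth factor, was 1002, 225 and 511 against 35.5 to 82.9 and rose by 3.13 (SE 0.43, adjusted p = 0.00113). Ikzf2, the Ikaros family factor Helios, was 929, 1225 and 913 against 279 to 678 and rose by 1.36 (SE 0.22, adjusted p = 0.0045). These 5 were picked with their values known.

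The 6 genes called both for fetal against KO and for KO against control were Cd69, Il18r1, Adgrg3, Synpo2, Trdmt1 and Rmi1. In the first 5 the KO groups had the highest mean, and fetal liver and control were both lower. Cd69, an activation antigen of lymphocytes, was at the floor on all fetal arrays, 96.6 to 437 on the KO arrays and 16 to 99.1 on the controls. It was at least 17.9-fold lower in fetal liver than in KO (adjusted p = 0.00308), and KO minus control was 3.42 (SE 0.51, adjusted p = 0.0433). Il18r1, a chain of the interleukin-18 receptor, was 30.5, 21.4 and 30.8 on the fetal arrays, 99.997 to 359 on the KO arrays and 32.5 to 80.7 on the controls, with a difference to KO of -2.79 (adjusted p = 0.000498) and a KO minus control difference of 1.99 (adjusted p = 0.0426). Adgrg3, an adhesion receptor, had values of -2.28 (adjusted p = 0.00476) and 1.87 (adjusted p = 0.0433) in the same comparisons, and Synpo2, an actin-binding protein, -2.23 (adjusted p = 0.00283) and 1.88 (adjusted p = 0.0433).

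Trdmt1, a methyltransferase of transfer RNA, was at the floor on all 7 controls and 2 of 3 fetal arrays and 20.3 to 181 on the KO arrays. Fetal minus KO was -2.25 (SE 0.51, adjusted p = 0.0336), a call lost in 6 of 10 fits without 1 array and kept without fetal liver replicate 1 or KO day 21 replicate 2, 3 or 4. Rmi1, a partner of the BLM helicase in DNA repair, was the one gene that rose at both steps, with 350.4, 326 and 252 on the fetal arrays, 101 to 189 on the KO arrays and 43.6 to 117 on the controls. Fetal minus KO was 1.08 (adjusted p = 0.039), kept only without KO day 21 replicate 2 among the fits without 1 array, and KO minus control was 1.20 (adjusted p = 0.0448). For KO against control, Cd69 was called in 3, Il18r1 in 7, Adgrg3 in 0, Synpo2 in 4, Trdmt1 in 3 and Rmi1 in 1 of the 14 fits without 1 array.

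In 2 other genes called for KO against control, the KO and fetal arrays overlapped and all controls lay below or above both. Aspm, a spindle protein of dividing cells, was 349, 541 and 1119.6 on the fetal arrays, 205 to 1402 on the KO arrays and 27.9 to 156 on the controls. Fetal minus KO was -0.11 (SE 0.66, adjusted p = 0.985), with a 95% interval from -1.52 to 1.31, and KO minus control was 3.23 (SE 0.51, adjusted p = 0.0433), called in 1 of 14 fits without 1 array. The sign of fetal minus KO turned with median centring and 2 of its 5 probe sets shared it. Fzd8, a Wnt receptor, was 130.3, 44 and 25.1 on the fetal arrays, 67.9 to 133 on the KO arrays and 257 to 1052 on the controls, with a fetal minus KO difference of -0.89 (SE 0.44, adjusted p = 0.386). KO minus control was -2.24 (SE 0.35, adjusted p = 0.0433), called in 1 of 14 such fits.

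Eif2s3y was called lower in fetal liver, at a difference of -1.94 (SE 0.23, adjusted p = 0.00031), as the 3 fetal and 4 KO day 21 arrays were at the floor and the KO day 7 arrays were not. It was the 1 called gene of 4 sex-linked genes tested, and without KO day 7 replicate 1, which carried both Xist and Y-linked signal, 3 were called lower and 1 higher.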

How the data were processed

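RNA of sorted mouse HSCs was amplified and hybridised to Affymetrix arrays, and 17 arrays were used. The deposited value table holds probe-set intensities that the authors processed with RMA, per the submitters' processing notes. Its values are linear with a floor of 16, and no source used here gives the scaling applied after RMA. Their log2 was taken with no pseudocount and no further scaling. Of 45101 probe sets, 34958 name 1 gene in the platform annotation, 932 name several and were left out, and the rest are unnamed here. A gene was represented by its probe set of highest mean log2 value on all 17 arrays, and 1409 genes at the floor on all arrays were dropped. A group of arrays wholly at the floor gives a bound only ("at least N-fold").

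limma 3.58.1 in R 4.3.3 was fitted with 1 mean per group over all 17 arrays (lmFit and eBayes, 12 residual degrees of freedom), and the procedure was tested on simulated data. Adjusted p-values are Benjamini-Hochberg values over 16785 genes. Genes were named as the 10 largest non-overlapping called changes in each direction, up to 2 called members per list and direction (the smallest p where none was called), the largest called changes between KO and control, and Cebpa, Spi1 and Mycn. Other printed genes, among them Jun, Fos, Nfkbia, B2m, Grb10, Lcn2 and Cdh5, were added outside this rule with their values known. Only some of them are marked so where they appear. The comparison, the 30 gene lists and the members were chosen with earlier results of these data known. Alternatives covered scaling, probe-set choice, filters, replicate block, variance model, array weights, arrays fitted and arrays left out.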

Additional observations from a re-analysis of the deposited data

Results flagged for a closer look

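Single KO day 21 arrays stood apart from the other 3 of their group in 11 of 133 genes checked, by a gap test that chance trips in about 1 of 20 groups. The 133 were the genes named by the rule and others added to them, not all of which are printed here. On replicate 1, Irf8 was 302 against 83.8 to 95.9 on the others, and Cd69 was 96.6 against 342 to 437. On replicate 2, Plagl1 was 77.5 with the others at the floor of 16, Hbb-bh1 was 53.9 against 37.6 to 38.6, Irf1 was 649.7 against 1146 to 1225, and Skil was 2469 against 1747 to 1809. On replicate 3, Mycn was 1242 against 499 to 548, C1qb was 217 against 16 to 20.3, Camp was 35.4 against 59.9 to 66.4, Apoa1 was 65.2 against 89.9 to 93.4, and Cdh5 was 34.4 against 23.9 to 24.7. Groups of 3 arrays, fetal liver among them, are too small for this test.

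The gap of fetal liver to KO in Ache differed between the KO days by 2.79 on the log2 scale (limma, adjusted p = 0.0482 for KO day 21 against day 7). Its gap was -0.58 against day 7 and -3.37 against day 21.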

How the results depend on the processing

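Fetal liver against the mean of the KO groups gave 314 to 474 calls under 10 of 11 alternatives and 650 with the mean of all probe sets of a gene. The called genes changed more than these counts. Of the 426, 373 were also called with median centring (427 calls), 420 with each KO array weighted equally and 267 with only the arrays compared (375 calls). Without fetal liver replicates 1, 2 and 3, 298, 226 and 245 of the 426 were kept, among 485, 297 and 317 calls. Without 1 KO array, 270 to 314 were kept. Against KO day 7 the count was 337 with array weights and 31 when only the arrays compared were fitted, where fewer arrays estimate the spread. Against KO day 21 it was 504 with the mean of all probe sets and 127 when only the arrays compared were fitted. KO against control gave 1 call with median centring, 29 with the mean of all probe sets, 5 with no filter, 7 above the median probe set, 44 with array weights, 1 with each array's percentage of floor values as covariate and 5 when only the arrays compared were fitted. Apart from the smaller fits, the cause was not tested. Leaving out 1 array at a time gave 287 to 485 calls against the mean of KO, 117 to 351 against day 7, 237 to 448 against day 21 and 0 to 11 for KO against control. Replicate numbers showed no pairing of fetal with KO arrays. Deviations of same-numbered fetal and KO arrays correlated at -0.0167 to 0.0153 and of differently numbered ones at -0.0195 to 0.0202. Pairs of KO and control arrays were not checked. With the replicate number as a block the counts were 345, 175, 275 and 11 in the same order. Aspm, uncalled for fetal minus KO at -0.11, turned positive with median centring (0.0140), with the mean of all probe sets (0.46), and without fetal liver replicate 1 (0.28), KO day 7 replicate 2 (0.03) or KO day 21 replicate 2 (0.01) or 3 (0.11), its range without 1 array being -0.56 to 0.28. Of the genes whose calls depended on single arrays, Fgd5, Hoxa10, Grb10, Trdmt1, Psmb8, Tapbp, Rmi1, Cdkn1b, Egln3, Usp18, Hspa1b, Pf4, Irf8, Slc4a1, Col1a1, Lcn2, Nr4a2 and Per1 also lost the call under at least 1 other alternative. The signal near the floor limits dim genes: their fold changes are compressed there.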
